A study of Mus musculus with 14 samples.

Results

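The genes described here encode the enzymes that cut and crosslink the extracellular matrix, and the inhibitors of the cutting enzymes. They were chosen by name: every protein-coding gene on an autosome of the mouse genome whose symbol is Mmp, Adam or Adamts followed by a number, together with Timp2, Timp3, Timp4, Lox and Loxl1 to Loxl4. This gave 75 genes of 20807 autosomal protein-coding genes in the annotation, GENCODE release M21. They comprise 21 Mmp, 27 Adam, 19 Adamts, 3 Timp and 5 Lox genes. The values below are positions of H3K4me3 peaks and of putative enhancers. H3K4me3 is histone H3 trimethylated at lysine 4, which is found around the starts of active and poised genes.

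The cells were immortalised mouse embryo fibroblasts (iMEFs) with floxed Ash2l alleles and a Cre-ER recombinase. An exon of the mouse gene had been deleted, and the cells relied on a lentivirally introduced FKBP-HA2-ASH2L fusion with the human protein. ASH2L is needed by the KMT2 enzymes, which add methyl groups to H3K4, and the compound dTAG-13 links the FKBP tag to a ubiquitin ligase so that the fusion is degraded. The 12 H3K4me3 libraries formed 6 groups of 2, untreated cells and cells treated with dTAG for 30 min, 2 h, 4 h, 8 h or 16 h, and 2 further libraries were inputs, 1 without dTAG and 1 after 16 h of it. All groups carried the same deletion and the same fusion, and the study names NG3, which is 1 clone, as the cells of its ChIP-seq. The list joins the peaks of all samples, so that a peak cannot be assigned here to treated or to untreated cells. Neither list holds a value per library. There is accordingly no replicate error, the depth that each library reached cannot be read from the files (the methods give only a minimum that was aimed for), the time course was not analysed here, and every comparison below is a description of positions with no test.

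Matrix metalloproteinases (MMPs) are secreted or membrane-bound zinc enzymes that cleave collagens, laminins and proteoglycans, and TIMPs are the proteins that block them. ADAMs are membrane proteins, some of which release growth factors and receptors from the cell surface, while others act in sperm or as adhesion proteins without enzyme activity. ADAMTS enzymes are secreted and cut proteoglycans, trim procollagens or process other matrix proteins. Lysyl oxidases, encoded by Lox and the Loxl genes, oxidise lysines of collagen and elastin so that the fibres crosslink. Fibroblasts are a main source of many of these proteins in connective tissue, and several MMP genes are known to be induced there by growth factors, cytokines or injury.

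A gene was called marked when any base of a peak lay within 1 kb of one of its transcription start sites (TSSs). Of the 75 genes, 42 were marked, or 56%, against 60.3% of all autosomal coding genes. The share over the whole set was thus near the background, but it differed widely between the families. Among the Adamts genes 16 of 19 were marked (84.2%), among the lysyl oxidases 4 of 5 (80%), among the inhibitors 2 of 3 and among the Mmp genes 11 of 21 (52.4%). The Adam genes had the lowest share, with 9 of 27 (33.3%). A total of 15 of these Adam genes are known for roles in testis and epididymis and none of the 15 was marked. Without them, a choice made after the data were seen that could only raise the share, 42 of 60 genes were marked, or 70%. The members of a family descend from each other by duplication and are not independent of each other.

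The marked genes differed from the unmarked ones in the DNA around their starts, which the choice of genes did not use. The 250 bases before the RefSeq gene start (build GRCm38.p6) are shown for 7 members, chosen after their values were seen from those where these bases hold no annotated exon. They are given 5′ to 3′ on the strand of the gene, and the capitals mark each CpG dinucleotide, the site of DNA methylation in mammals. The first 3 are marked genes of the membrane-bound Mmp14 and Mmp24 and of the proteoglycanase Adamts1, the fourth is the marked Adamts12 with few CpGs, and the last 3 are the unmarked collagenase Mmp13, stromelysin Mmp3 and inhibitor Timp4.
Mmp14, chr14:54431348-54431597, + strand: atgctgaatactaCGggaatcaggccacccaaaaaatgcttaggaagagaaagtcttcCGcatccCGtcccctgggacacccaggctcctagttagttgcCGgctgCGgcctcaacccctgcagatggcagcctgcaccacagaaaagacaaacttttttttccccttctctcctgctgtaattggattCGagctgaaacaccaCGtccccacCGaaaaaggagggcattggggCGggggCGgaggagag
Mmp24, chr2:155775092-155775341, + strand: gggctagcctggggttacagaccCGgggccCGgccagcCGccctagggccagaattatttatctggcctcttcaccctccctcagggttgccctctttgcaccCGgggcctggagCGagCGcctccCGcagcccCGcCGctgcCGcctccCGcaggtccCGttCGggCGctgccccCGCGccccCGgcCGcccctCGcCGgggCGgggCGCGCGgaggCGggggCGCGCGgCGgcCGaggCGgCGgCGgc
Adamts1, chr16:85803114-85803363, - strand: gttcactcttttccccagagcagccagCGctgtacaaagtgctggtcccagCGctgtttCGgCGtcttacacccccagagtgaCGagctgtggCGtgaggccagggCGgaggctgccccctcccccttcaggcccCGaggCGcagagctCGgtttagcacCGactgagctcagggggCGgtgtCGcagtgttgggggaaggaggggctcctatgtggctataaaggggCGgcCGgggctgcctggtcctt
Adamts12, chr15:11064523-11064772, + strand: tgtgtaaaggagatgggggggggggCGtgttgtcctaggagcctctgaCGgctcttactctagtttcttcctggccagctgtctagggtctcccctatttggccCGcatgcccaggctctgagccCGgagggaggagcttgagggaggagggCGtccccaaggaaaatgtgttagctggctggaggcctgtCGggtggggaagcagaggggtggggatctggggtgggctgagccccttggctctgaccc
Mmp13, chr9:7272264-7272513, + strand: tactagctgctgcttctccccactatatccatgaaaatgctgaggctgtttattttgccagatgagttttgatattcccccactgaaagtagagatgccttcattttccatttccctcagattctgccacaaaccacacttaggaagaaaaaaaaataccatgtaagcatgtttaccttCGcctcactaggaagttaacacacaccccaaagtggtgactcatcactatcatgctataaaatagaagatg
Mmp3, chr9:7445572-7445821, + strand: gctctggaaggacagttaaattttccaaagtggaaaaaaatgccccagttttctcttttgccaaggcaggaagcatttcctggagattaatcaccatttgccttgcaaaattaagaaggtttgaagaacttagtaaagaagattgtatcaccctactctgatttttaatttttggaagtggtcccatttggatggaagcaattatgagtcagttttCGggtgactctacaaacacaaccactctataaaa
Timp4, chr6:115252206-115252455, - strand: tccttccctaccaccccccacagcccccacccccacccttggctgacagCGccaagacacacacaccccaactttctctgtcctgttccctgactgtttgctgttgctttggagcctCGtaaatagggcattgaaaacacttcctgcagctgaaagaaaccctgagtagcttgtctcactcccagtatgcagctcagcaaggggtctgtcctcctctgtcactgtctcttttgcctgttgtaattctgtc

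In these stretches Mmp24 held 33 CpGs, Adamts1 held 15 and Mmp14 held 10. Adamts12 held 6, Timp4 held 2, and Mmp3 and Mmp13 held 1 each. The GC content was 79.2% before Mmp24, 65.6% before Adamts1 and 55.2% before Mmp14. It was 63.2% before Adamts12, which has few CpGs for its GC content, and 53.6% before Timp4. It was 40.4% before Mmp13 and 37.6% before Mmp3. The first 3 thus held more CpGs than the 3 unmarked genes, and Adamts12 lay between them.

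Short motifs were counted in the RefSeq promoters, 300 bases from 250 before the start to 50 after it, on both strands. Of the 75 members, 42 had a promoter in the RefSeq table, 25 of them marked and 17 unmarked. The marked Mmp2, Mmp19, Adamts4, Adamts5, Adamts6, Adamts10, Lox, Loxl1 and Loxl3 and the unmarked Adamts15 and Loxl2 had none. All of these are named below as exceptions to the CpG contrast, so the motif counts leave out many of the exceptions. The GC box GGGCGG, which itself holds a CpG, was found in 21 of the 25 marked members (84%) and in 2 of the 17 unmarked ones (11.8%), Adam8 and Adamts13, against 38.6% of the 25748 autosomal genes in the table. The TATA box TATAAA was found in 1 marked member (4%), Adamts1, and in 9 unmarked members (52.9%), against 15.7% of all genes. TGANTCA was searched for AP-1, the dimer of Fos and Jun proteins, whose known site has C or G at the N. It was found in 1 marked member (4%), Adam19, and in 9 unmarked members (52.9%), against 9.05% of all genes. These counts also take in A or T at the N, so they are wider than the AP-1 site. The background was neither split into marked and unmarked genes nor limited to coding genes, whereas every member is coding. Whether these contrasts are particular to the members was therefore not tested. A match describes letters and not a bound site.

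**Figure D1:**
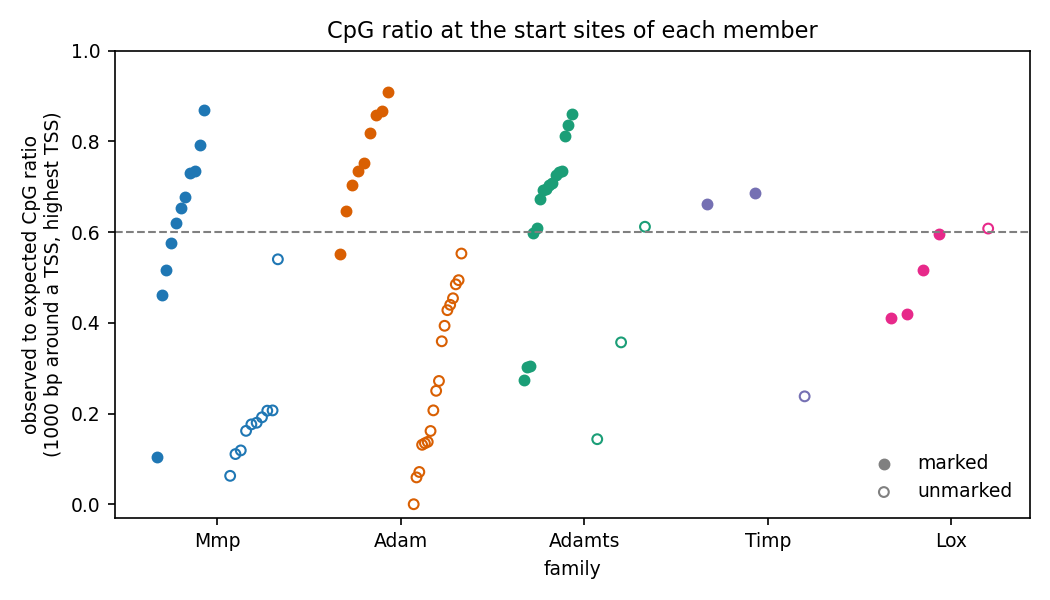
Observed to expected CpG ratio in 1000 bp around the TSS with the highest ratio, for each of the 75 members by family (y axis, ratio without unit). Filled points are marked and open points unmarked members, and the dashed line is the ratio of 0.6. The unmarked members lie below 0.6 except Adamts15 and Loxl2, and the marked lysyl oxidases all lie below it.

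The same contrast held over all 75 genes when 1000 bp around each TSS was read from the genome and the TSS with the highest ratio of observed to expected CpGs was taken. The median ratio was 0.689 in the 42 marked members, with a range of 0.105 to 0.908. It was 0.207 in the 33 unmarked members, with a range of 0 to 0.612. The difference of the medians was 0.482. Marked members had more annotated TSSs to choose from, with a median of 4 against 2, and with the mean over the TSSs of a gene the difference was 0.314. Over all coding genes the medians were 0.772 for marked and 0.234 for unmarked genes. A start was called CpG-rich when this ratio was above 0.6 and the GC content above 50%. By this measure 28 of 42 marked members and 2 of 33 unmarked members were CpG-rich. Seen from the sequence, 28 of 30 CpG-rich members were marked (93.3%), against 93.1% of all CpG-rich genes, and 14 of 45 CpG-poor members were marked (31.1%), against 24.5% of all CpG-poor genes. The relation was thus close to that of the genome at large.

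The exceptions are named. The CpG-rich members without a peak were Adamts15, a proteoglycanase, with a ratio of 0.612, and Loxl2, with 0.608. Both ratios lie just above the limit. The 14 CpG-poor members with a peak were Mmp2, Mmp11, Mmp19, Mmp28, Adam19, Adamts4, Adamts5, Adamts6, Adamts10, Adamts12, Lox, Loxl1, Loxl3 and Loxl4. Adamts6 and Adamts10 lay at the limit, with ratios of 0.609 and 0.598, the former CpG-poor through a GC content of 40.6%. Lox was also near it, with 0.596. Mmp19 had the lowest ratio among marked members, 0.105, and it also had the narrowest peak. All 4 marked lysyl oxidases were CpG-poor, whereas the unmarked Loxl2 was CpG-rich.

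**Figure D2:**
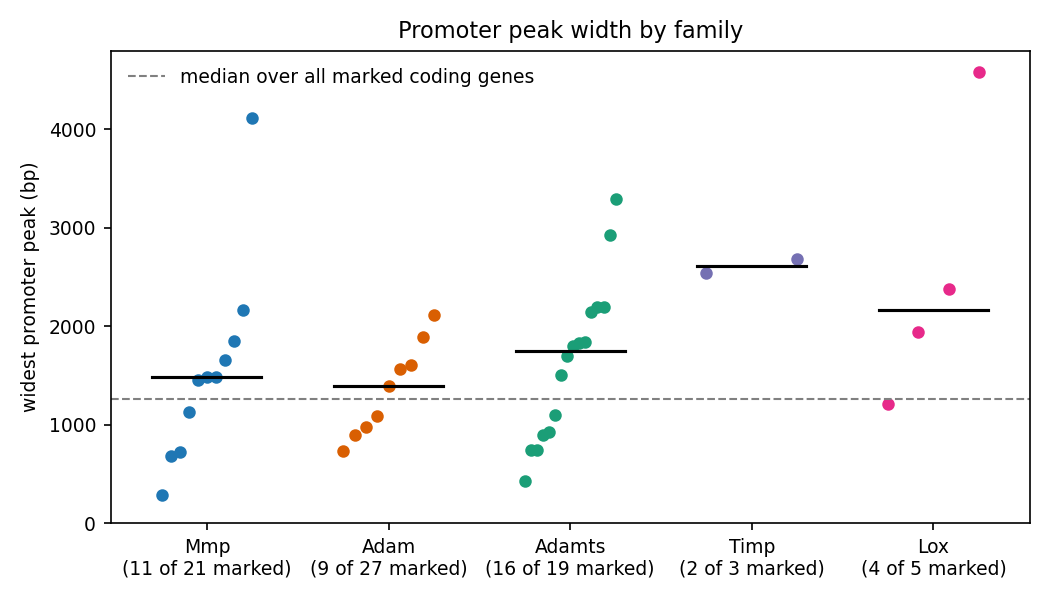
Width of the widest promoter peak (y axis, bp) of each marked member by family, with the median of the family as a black bar and the median over all marked coding genes, 1264 bp, as a dashed line. The family medians run from 1392 bp for Adam to 2610 bp for Timp, and Loxl3 (4582 bp) and Mmp14 (4109 bp) stand above all others.

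Where a member had more than 1 promoter peak, the widest was taken. The median width was 1584 bp over the 42 marked members, with quartiles of 1005 and 2136 bp, and 1264 bp over all 12545 marked genes. Peaks of 2000 bp or more were found at 12 members, or 28.6%, against 16.3% of all marked genes. The widest were Loxl3 with 4582 bp, Mmp14 with 4109 bp, Adamts5 with 3291 bp, Adamts1 with 2927 bp and Timp3 with 2684 bp. The Loxl3 peak was shared with the start of the neighbouring gene Dok1. The narrowest were Mmp19 with 285 bp, Adamts18 with 429 bp, Mmp24 with 680 bp, Mmp25 with 718 bp and Adam11 with 732 bp. A width is that of the called region and says nothing of its height.

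The gelatinases, which digest denatured collagen and the collagen of basement membranes, were split. Mmp2 carried a peak of 2160 bp at chr8:92826994-92829153, which reached from 297 bp before its principal TSS to 1862 bp after it. Mmp2 is the gelatinase that fibroblasts are known to make constitutively. Mmp9, which is known from neutrophils and macrophages, had no promoter peak, and the nearest peak lay 6178 bp from its closest TSS. Mmp2 had 4 putative enhancers within 50 kb, and Mmp9 had none.

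The collagenases Mmp8 and Mmp13, which open intact fibrillar collagen, were both unmarked. Of the stromelysins, which cut a broad range of matrix proteins, Mmp3 and Mmp10 were unmarked. The third gene of that name, Mmp11, which differs from the other two in its substrates, carried a peak of 1483 bp. The Mmp11 peak also fell into the TSS window of Chchd10. Matrilysin, Mmp7, was unmarked.

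Most of these unmarked genes lie side by side. A run of 8 members, Mmp13, Mmp12, Mmp3, Mmp10, Mmp8, Mmp27, Mmp20 and Mmp7, occupies 427.1 kb at chr9:7272514-7699585, with Mmp1b as the only other coding gene inside, and it holds no marked gene. They include macrophage elastase (Mmp12) and enamelysin (Mmp20), the protease of tooth enamel. The run contained 2 H3K4me3 peaks, both away from the promoters. The first overlapped an enhancer and lay between Mmp27 and Mmp20, and the second, of 306 bp, lay inside Mmp20. The distance from a TSS to the nearest peak ran from 16950 bp for Mmp20 to 158798 bp for Mmp12. The run also contained 5 enhancers, and no member had an enhancer inside the gene. Mmp20 had 3 within 50 kb, Mmp7, Mmp8, Mmp10, Mmp13 and Mmp27 had 2 each, Mmp3 had 1 and Mmp12 had none. Neighbours share some of these enhancers.

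**Figure D3:**
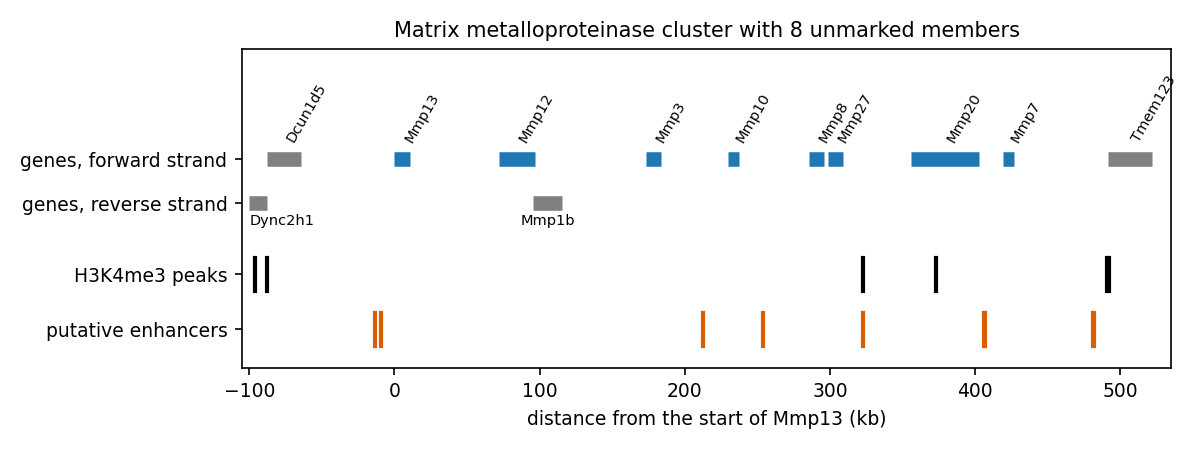
Map of the Mmp run on chromosome 9 (x axis, distance in kb from the start of Mmp13), with the 8 members in blue, other genes in grey (Dync2h1 extends beyond the left edge), H3K4me3 peaks in black and putative enhancers in orange. The 2 peaks inside the run lie between Mmp27 and Mmp20 and within Mmp20, away from every member's start.

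The motif counts of the run are given beside those of the other unmarked genes. All 8 members of the run had a RefSeq promoter, of which 6 held TGANTCA, 7 held TATAAA and none held the GC box. Among the other 9 unmarked members with a RefSeq promoter, 3 held TGANTCA, 2 held TATAAA and 2 held the GC box. The TGANTCA matches of the run are shown in capitals with 10 bases on either side, since they lie shortly before the starts of neighbouring genes. All are on the + strand of chromosome 9 (GRCm38.p6).
Mmp13, chr9:7272469-7272495: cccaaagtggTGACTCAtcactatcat
Mmp12, chr9:7347320-7347346: acatcaacagTGAGTCAgatagaggat
Mmp3, chr9:7445766-7445792: gaagcaattaTGAGTCAgttttcgggt
Mmp10, chr9:7502269-7502295: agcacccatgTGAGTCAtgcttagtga
Mmp20, chr9:7628126-7628152: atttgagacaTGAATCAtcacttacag
Mmp7, chr9:7692017-7692043: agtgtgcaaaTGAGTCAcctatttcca

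Counted from the RefSeq start at 0, the first letter of the match lay at -35 in Mmp13, -44 in Mmp12, -46 in Mmp3, -63 in Mmp10 and Mmp7, and -95 in Mmp20. The form TGAGTCA was present in Mmp12, Mmp3, Mmp10 and Mmp7, and TGACTCA in Mmp13. Mmp20 held TGAATCA, which lacks the C or G of the known AP-1 site. The bases on either side differed between the genes.

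The membrane-type MMPs, which act at the cell surface, were marked throughout, with 6 of 6. All 6 were CpG-rich, with ratios from 0.619 (Mmp25) to 0.869 (Mmp24), and 93.1% of all CpG-rich genes were marked. Mmp14, the main collagenase of the fibroblast surface and the activator of the Mmp2 enzyme, had the widest peak of the Mmp family. It ran over 4109 bp at chr14:54430470-54434578, from 1142 bp before the principal TSS to 2966 bp after it, and lay within 1 kb of 6 of the 7 TSSs of the gene. The other peaks measured 1660 bp for Mmp17, 1488 bp for Mmp16, 1452 bp for Mmp15, 718 bp for Mmp25 and 680 bp for Mmp24. A putative enhancer lay in the gene or within 50 kb at 5 of the 6, the exception being Mmp15. Of the remaining Mmp genes, Mmp23 (1848 bp), Mmp28 (1126 bp) and Mmp19 (285 bp) were marked, and Mmp21 was not.

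The ADAM sheddases, which release membrane-anchored proteins, were marked in 6 of 8 cases, against 60.3% of all coding genes. The marked ones were CpG-rich except Adam19, and the unmarked ones were CpG-poor. Adam10, the protease that cuts Notch, had a peak of 1392 bp, and Adam17, which releases tumour necrosis factor, had peaks of 891 and 563 bp on either side of its principal TSS. Adam15 had the widest peak of the family with 2116 bp. Adam19 had 1891 bp, Adam12 had 1601 bp and Adam9 had 976 bp. Adam12, a gene of growing and regenerating mesenchyme, had more enhancers than any other member, 27, of which 23 lay in its gene of 348.9 kb. Adam19 had 12, Adam9 had 11, Adam15 had 3, and Adam10 and Adam17 had 1 each. The unmarked sheddases were Adam8, which is known from leukocytes, and Adam33. Adam8 lay closest to the limit of the window among all unmarked members, with the nearest peak at 1629 bp, and it had 4 enhancers. Adam33 was 12279 bp from a peak and had 2 enhancers.

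The neural ADAMs, adhesion proteins of neurons that lack protease activity, were all marked. Adam22 had a peak of 1566 bp, Adam23 had 1091 bp and Adam11 had 732 bp. Adam11 had a second peak of 699 bp at another start within the gene, which overlapped an enhancer. Adam22 had 12 enhancers, Adam11 had 5 and Adam23 had none. All 3 were CpG-rich, with ratios of 0.704, 0.866 and 0.646 for Adam22, Adam23 and Adam11. Of all CpG-rich genes 93.1% were marked.

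The 15 Adam genes of testis and epididymis, which include the sperm proteins of Adam2 and Adam3, were Adam2, Adam3, Adam4, Adam5, Adam7, Adam18, Adam20, Adam21, Adam24, Adam25, Adam29, Adam30, Adam32, Adam34 and Adam39. None was marked and none was CpG-rich, and 24.5% of all CpG-poor genes were marked. The nearest peak lay between 26055 bp (Adam21) and 919448 bp (Adam34) from a TSS. Adam24, Adam25, Adam20 and Adam39 form a run of 152 kb on chromosome 8 that held no peak and no enhancer, although Adam24 had 4 enhancers within 50 kb outside the run. Adam18, Adam3, Adam5, Adam32 and Adam9 form another run of 414.7 kb on the same chromosome. In it the sheddase Adam9 was the only marked member. This run held 2 peaks and 13 enhancers. Adam32, the neighbour of Adam9, had 10 enhancers in its gene or within 50 kb, of which 2 lay inside the gene. Most of the others lay inside Adam9 and were counted for Adam9 as well. Adam28, which is known from lymphocytes, was unmarked, had no enhancer and lay 303539 bp from the nearest peak.

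The ADAMTS proteoglycanases, which cut aggrecan and versican, were marked in 6 of 7 cases, against 60.3% of all coding genes. Adamts5, the main aggrecanase in mice, carried a peak of 3291 bp at chr16:85898778-85902068. Its neighbour Adamts1 carried one of 2927 bp at chr16:85800845-85803771, flanked by smaller promoter peaks of 565 and 556 bp. The pair lies within 108 kb on chromosome 16, is the only run of members that was marked throughout, and held 5 peaks and 7 enhancers. Adamts4, the other well-known aggrecanase, had 2199 bp, a peak that also lay within 1 kb of another coding gene's TSS. Adamts20 followed with 1696 bp, Adamts9 with 1101 bp and Adamts8 with 738 bp. Adamts15 was unmarked although Adamts8 lies next to it, and its nearest peak was 20023 bp away. Adamts5 had 10 enhancers, Adamts20 had 5, Adamts1 had 4, Adamts4 had 2, and Adamts8, Adamts9 and Adamts15 had 1 each.

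The procollagen N-proteinases, which remove the amino-terminal propeptide before fibrils form, were all marked, with 2142 bp for Adamts2, 1841 bp for Adamts3 and 1506 bp for Adamts14. They had 6, 2 and 3 enhancers and were all CpG-rich, and 93.1% of all CpG-rich genes were marked. The enzymes that cut cartilage oligomeric matrix protein were marked too. Adamts12 had a peak of 2192 bp and 17 enhancers, of which 15 lay in its gene of 284.4 kb, and Adamts7 had 1804 bp and 2 enhancers. Adamts13, the liver enzyme that cuts von Willebrand factor, was unmarked, with a peak 2916 bp from its nearest TSS and no enhancer. Against 60.3% of all coding genes, 5 of 6 of the remaining Adamts genes were marked. Their peaks were 1829 bp for Adamts10, 923 bp for Adamts17, 894 bp for Adamts6, 745 bp for Adamts19 and 429 bp for Adamts18, so that all but Adamts10 fell below the median of all marked genes. The unmarked one was Adamts16. It had 14 enhancers, 9 of them inside the gene, and its nearest peak was 156123 bp away. No other unmarked member had as many.

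Among the inhibitors, Timp2 and Timp3 were marked and Timp4 was not. Timp3, the inhibitor that is held in the matrix, carried a peak of 2684 bp at chr10:86300162-86302845, from 210 bp before the principal TSS to 2473 bp after it, followed by a second of 399 bp. Its widest peak overlapped a putative enhancer. Timp2, which also takes part in the activation of the Mmp2 enzyme at Mmp14, carried 2536 bp at chr11:118352836-118355371, starting 135 bp after the principal TSS, and 232 bp on the other side of it. Timp3 had 8 enhancers, Timp2 had 3 and Timp4 had none. The nearest peak to a Timp4 TSS was 108523 bp away. Timp1, the remaining gene of the family, lies on the X chromosome and outside the rule, and it had a promoter peak of 536 bp.

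Of the lysyl oxidases, Lox, Loxl1, Loxl3 and Loxl4 were marked. Lox carried 1943 bp on chromosome 18, from 32 bp before the principal TSS to 1910 bp after it, and a further 3 peaks of 570, 258 and 411 bp followed inside the gene. Loxl1, which is needed for elastic fibres, carried 2380 bp at chr9:58310850-58313229 and a peak of 1123 bp farther inside the gene. Loxl3 carried 4582 bp at chr6:83031301-83035882, of which 2872 bp lay before its principal TSS, on the side of Dok1. Loxl4 carried 1208 bp. Lox had 12 enhancers, of which 11 lay outside the gene, and its density of 10.5 enhancers per 100 kb of gene and flanks was the highest of the 75 members. Loxl1 had 7, Loxl3 and Loxl4 had 3 each, and the unmarked Loxl2 had 2. The nearest peak to a TSS of Loxl2 was 96731 bp away.

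**Figure D4:**
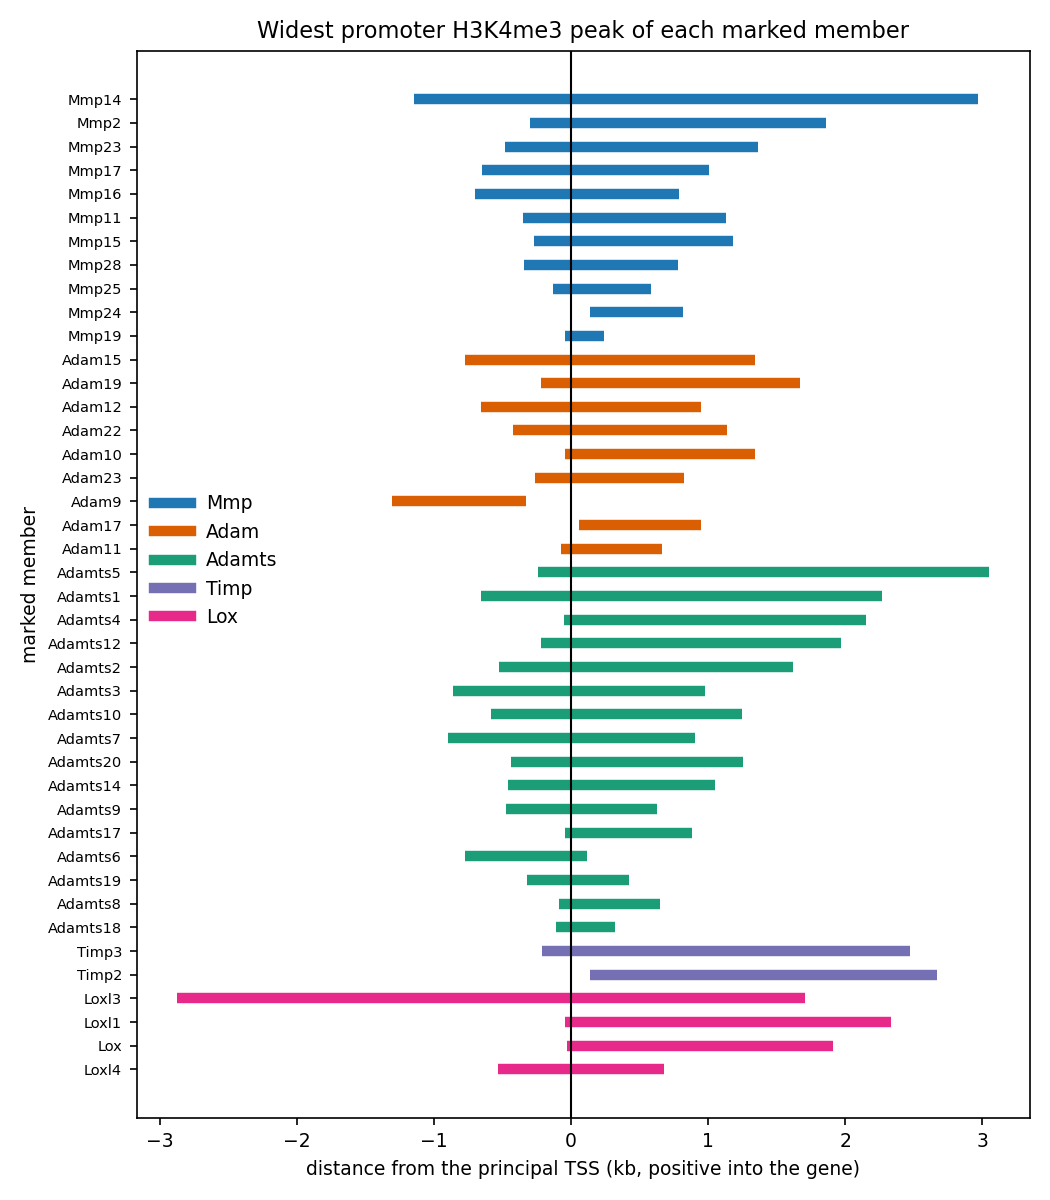
Extent of the widest promoter peak of each of the 42 marked members relative to its principal TSS (x axis, kb, positive into the gene), coloured by family and ordered by width within it. In 38 members the peak covers the TSS, and in most it reaches farther into the gene than before it.

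The peaks lay mostly downstream of the start. The widest peak covered the principal TSS in 38 of 42 members. In all marked genes this share was 70.9%. In 36 of the 38 it reached farther into the gene than before it, compared with 85.2% over all marked genes. The median reach of the 38 was 1135 bp downstream and 347.5 bp upstream. The 2 exceptions were Loxl3, towards Dok1, and Adamts6. In Mmp24, Adam17 and Timp2 the principal TSS fell into the gap between a pair of peaks. In Adam9 a narrower peak of 659 bp covered it and the widest lay before it, in the TSS window of Tm2d2. In total 11 members had more than 1 promoter peak. Mmp11, Adam9 and Loxl3 were among those whose widest peak was shared with another coding gene's start.

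Beyond the promoter windows, 20 further peaks touched the members' gene bodies, of which 15 were away from every annotated TSS. These 15 lay in 13 members, and 5 of them overlapped a putative enhancer, in Adam9, Adam19, Adamts2, Adamts5 and Adamts20. The only unmarked member among the 13 was Mmp20. No marked member depended on the limit of 1 kb, since the peak nearest to a TSS lay at most 62 bp away (Mmp24). The nearest outside it were Adam8 at 1629 bp and Adamts13 at 2916 bp.

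**Figure D5:**
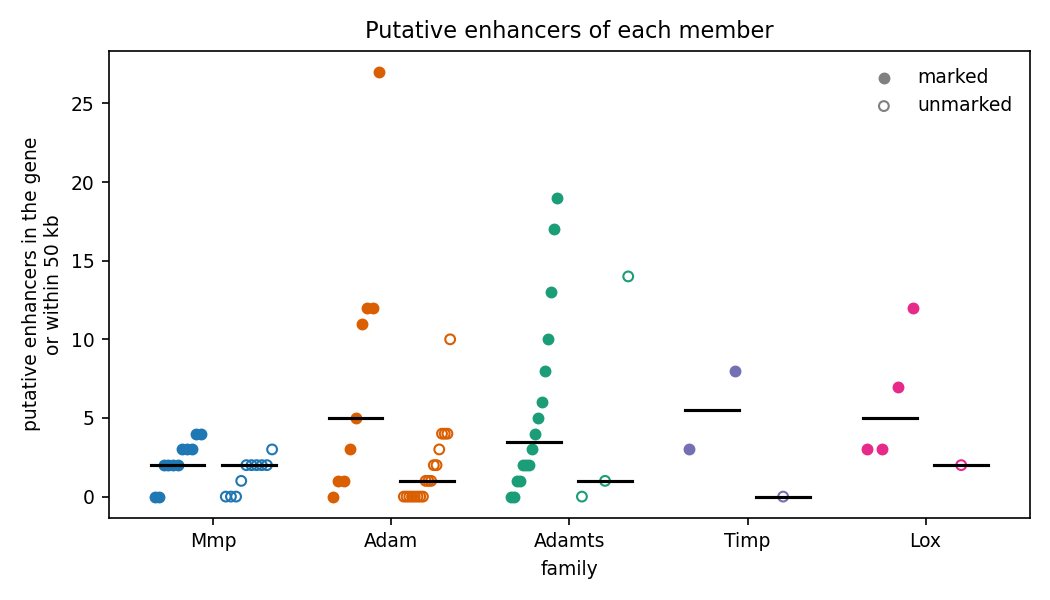
Putative enhancers in the gene or within 50 kb (y axis, count) for each of the 75 members by family, with filled points for marked and open points for unmarked members and black bars for medians. Adam12 has 27. Adamts16 with 14 and Adam32 with 10 are the unmarked members with most, and those of Adam32 lie mostly inside the marked Adam9.

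The authors took as putative enhancers those regions of control cells that had H3K4me1, H3K27ac and open chromatin and lay away from the TSSs they used. With the TSSs used here, 23 of the 267 distinct enhancers of the members lay within 1 kb of a TSS. At least 1 lay in the gene or within 50 kb at 57 of the 75 members (76%), compared with 64.3% of all coding genes. The assignment is by distance, and 20 of the 267 were counted for more than 1 member. The median was 3 enhancers in marked and 1 in unmarked members, against 2 and 0 over all coding genes. From the binomial intervals of the 2 medians, the difference of 2 has bounds of 0 and 5. It was 1 with enhancers within 25 kb, in the gene body only, or without the testis and epididymis Adam genes. At least 1 was present at 37 of 42 marked members (88.1%) and 20 of 33 unmarked members (60.6%). Over all coding genes these shares were 78.2% and 43.2%. Marked members were longer, with a median of 45.3 kb against 13.6 kb, and a longer gene takes in more enhancers. Over all coding genes these medians were 25.8 and 9.0 kb, so the members were also longer than coding genes at large. Per 100 kb of gene and flanks the medians were 1.95 in marked and 0.966 in unmarked members, against 1.535 and 0 over all coding genes. Whether gene length accounts for these differences was not tested.

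The difference between marked and unmarked members was not seen in every family. In the Mmp genes both medians were 2, and both medians per 100 kb were similar, 1.71 in marked and 1.81 in unmarked genes. In the Adam genes the medians were 5 and 1, and in the Adamts genes 3.5 and 1, with 3 unmarked genes. Enhancers inside the gene numbered 118 in 24 of the 42 marked members and 16 in 6 of the 33 unmarked ones. The members with most enhancers were Adam12 (27), Adamts6 (19), Adamts12 (17), Adamts16 (14) and Adamts18 (13). Of these, Adamts18 had the second narrowest promoter peak of all marked members and Adamts16 had none, so a high count of enhancers did not go with a wide promoter peak in each case.

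Other gene groups of the matrix are given for comparison. Of 42 collagen genes 29 were marked (69%) and of 36 integrin and laminin genes 25 (69.4%), against 42 of the 75 members (56%). Over all coding genes the share was 60.3%. The median widest peak was 1018 bp in the collagen genes and 1318 bp in the integrin and laminin genes, against 1584 bp here. It was 1264 bp over all marked coding genes. CpG-rich starts were found in 34.5% of the marked collagen genes, 60% of the marked integrin and laminin genes and 66.7% of the marked members. An enhancer lay in the gene or within 50 kb at 90.5% of the collagen genes and 100% of the integrin and laminin genes. In the members this share was 76%, and over all coding genes it was 64.3%. The median was 4 enhancers in the collagen genes, 3 in the integrin and laminin genes and 2 in the members. These differences were not tested.

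Over all autosomal coding genes 60.3% were marked, with a median width of 1264 bp. Of 31 further genes that act with these enzymes, 25 were marked, with a median width of 1452 bp. They included Furin, which activates membrane-type MMPs (2180 bp), the membrane inhibitor Reck (1553 bp), basigin (Bsg, 1452 bp), and the plasminogen activators Plau (1910 bp) and Plat (985 bp) with the urokinase receptor Plaur (2379 bp). Bmp1, the procollagen C-proteinase, had 2051 bp, its enhancer protein Pcolce had 3186 bp, and the collagen chaperone Serpinh1 had 3483 bp. All 3 lysyl hydroxylase genes and all 3 prolyl hydroxylase genes on the list were marked, Plod1 to Plod3 and P4ha1 to P4ha3. The unmarked genes were Plg, which encodes the plasminogen made in the liver, the transglutaminase Tgm2, Adamtsl2, Papln, Mmp1a and Mmp1b. Mmp1a is annotated as a polymorphic pseudogene.

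As a check of the label, all 11 fibroblast markers were marked, whereas none of 5 blood, 3 skeletal muscle and 3 pluripotency markers was. Over all autosomal coding genes 60.3% were marked, and the marker lists were chosen with earlier results of these data known. Of the epithelial markers 2 of 5 (Epcam and Cdh1) and of the endothelial markers 2 of 4 (Kdr and Tek) were marked, with peaks of 435 to 1009 bp. A peak says that the mark was called, and not that the gene was transcribed.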

How the data were processed

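H3K4me3 ChIP-seq was performed in iMEFs expressing FKBP-HA2-ASH2L, in 12 libraries with 2 inputs. Per the labels and methods, the authors trimmed the reads, aligned them with BWA to mm10, filtered them with SAMtools and called narrow peaks with MACS2. They deposited 25431 H3K4me3 peaks as a union over all samples, and 32965 putative enhancers. The deposited lists hold positions and no other value, so that widths depend on the depth and the threshold of peak calling, which cannot be assessed here.

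Judged by the widths, peak starts count from 0 and enhancer starts from 1. All positions below count from 1 in GRCm38. The first base of each transcript in GENCODE M21 was used as a TSS, and the principal TSS was that of the APPRIS principal transcript. The methods name a later release, so the sets of TSSs can differ. A gene was marked when any base of a peak lay within 1 kb of a TSS, and enhancers were counted in the gene or within 50 kb. Runs of members were joined over gaps of up to 500 kb. CpG content was computed from the RefSeq genome with pysam 0.24.0, and intervals were handled in Python 3.11.15 with NumPy 2.4.6. The interval functions were tested on 801 simulated cases, with 0 wrong.

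Promoter sequences came from RefSeq (GRCm38.p6). Of the members, 42 were in that table. Those without an entry were Adam2, Adam3, Adam4, Adam5, Adam7, Adam9, Adam11, Adam12, Adam18, Adam24, Adam28, Adam30, Adam32, Adam33, Adam39, Adamts4, Adamts5, Adamts6, Adamts7, Adamts8, Adamts10, Adamts15, Adamts16, Adamts19, Lox, Loxl1, Loxl2, Loxl3, Mmp2, Mmp9, Mmp16, Mmp17 and Mmp19. Genes named with values were all Timp, Lox and Loxl genes, well-known Mmp, Adam and Adamts genes listed by name, the widest and narrowest peaks, the members with most enhancers, those at the edge of the window and those in runs. The remaining members are named too. The members, roles, marker lists and motifs were chosen with earlier results of these data known. A neighbouring gene of 1 member is not reported here.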

Additional observations from a re-analysis of the deposited data

How the results depend on the processing

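The count of marked members, the median width, the count of members with an enhancer and the differences between marked and unmarked members in enhancers and in CpG ratio were recomputed under 16 alternative settings, 1 choice at a time, each for the results it bears on, which gave 41 values. Of these, 39 stayed within 1.5 times the count, the 95% binomial interval of the median width, or the bounds of a difference. Those bounds came from the intervals of its 2 medians and treat the genes as independent. No difference changed direction. Counts were compared and not shares, although some settings changed the number of genes. Several values had little or no room to leave their limits, so the count of 39 is no measure of robustness. Adding the 7 genes with a letter after the number could not move the count of marked members beyond 1.5 times. The difference in enhancers had wide bounds, 0 and 5. With enhancers counted in the gene body only, 30 members had an enhancer in place of 57. With a CpG window of 300 bp, the difference in median CpG ratio was 0.569 in place of 0.482, with the mean over a gene's TSSs it was 0.314, and with each run of members counted once it was 0.367. With other windows, TSS sets or peak filters, the count of marked members was 40 to 43. The median width was 1488 to 1601 bp with other windows, peak centres or coding transcripts. Counting each run of members once, by its first gene, left 56 genes, of which 38 were marked. This share lies above that of all coding genes (60.3%), whereas the share of the 75 members (56%) lies below it. Leaving out the testis and epididymis Adam genes, an alternative chosen after seeing the data, left a difference in median enhancers of 1 in place of 2. The count of marked members in this setting was bound to stay at 42, since none of the genes left out was marked. A planned count of zinc-binding motifs in the proteins was not run, since no protein table was used here. No paired analysis was possible because no value belongs to a library or replicate. The depth that each library reached cannot be read from the files, so a member without a peak was not called and may still carry the mark below the limit of detection.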

Other observations

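Genes of the same families whose symbols carry a letter after the number lie outside the rule. Of the 7 on autosomes, Adam1a was marked and had 2 putative enhancers within 50 kb. Adam1b, Adam6a, Adam6b, Adam26a, Adam26b and Mmp1b were unmarked, and of these Adam1b had 1 enhancer and the others had none.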
